A study of Mus musculus with 45 samples.

Results

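The genes described here are 9 genes of glucose handling, and their expression was read in liver, kidney and brain of mice on 5 diets. They are *Pklr*, *Pfkfb1*, *Pfkfb3*, *G6pc*, *Pck1*, *Fbp1*, *Slc2a2*, *Ppp1r3b* and *Ppp1r3c*. They were chosen by name, with earlier results of these data known. Each of the 9 has a row in the deposited table, which gives 22080 genes on 45 microarrays (Affymetrix Mouse Gene ST v1.0). The animals were male C57BL/6 mice, 7 weeks old at the start, with 8 mice per diet, and their organs were taken on day 43 after a fast. Control mice received the AIN-93 diet, and the other groups received this diet with 0.5% cholesterol (HCD). HCD+Sim mice also received simvastatin, a statin, at 0.03 g per 100 g of diet. HCD+Gl-1 and HCD+Gl-2 mice also received 1.0% of a hydroalcoholic extract of the fungus *Ganoderma lucidum*, which for Gl-2 had grown on a substrate with 10 mM acetylsalicylic acid. Per the methods, pool A of a group holds RNA of 4 mice and pool B that of 4 others. Pool C is described there as a mix of both, which by that description leaves 2 independent pools behind the 3 arrays of each group.

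Liver and kidney are the main organs that release glucose into blood during a fast. Gluconeogenesis runs from oxaloacetate through the phosphoenolpyruvate carboxykinase made from *Pck1*, the fructose bisphosphatase made from *Fbp1* and the glucose phosphatase made from *G6pc*. Glycolysis runs the other way, and its last step in liver is the pyruvate kinase made from *Pklr*. Between these routes stand the bifunctional enzymes made from *Pfkfb1*, the liver form, and *Pfkfb3*, an inducible form of many tissues, which set the level of an activator of phosphofructokinase. *Slc2a2* codes for the glucose transporter GLUT2, and *Ppp1r3b* and *Ppp1r3c* code for subunits that bring protein phosphatase to glycogen and favour glycogen synthesis. In liver, glucose raises *Pklr* through the factor made from *Mlxipl* (ChREBP), while glucagon and glucocorticoids raise *Pck1*.

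Upstream sequences are shown for the 3 members that passed the test in a diet comparison, as the 250 bases before a RefSeq start site in GRCm38.p6. They run from 5′ to 3′ on the gene's strand, and capitals mark matches to the motifs searched on both strands.
Pklr, chr3:89136373-89136622, plus strand: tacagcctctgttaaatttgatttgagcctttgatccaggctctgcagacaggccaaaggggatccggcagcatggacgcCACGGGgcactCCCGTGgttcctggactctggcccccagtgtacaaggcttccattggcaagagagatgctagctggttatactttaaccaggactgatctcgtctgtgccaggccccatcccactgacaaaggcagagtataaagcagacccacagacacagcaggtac
Pfkfb3, chr2:11553930-11554179, minus strand: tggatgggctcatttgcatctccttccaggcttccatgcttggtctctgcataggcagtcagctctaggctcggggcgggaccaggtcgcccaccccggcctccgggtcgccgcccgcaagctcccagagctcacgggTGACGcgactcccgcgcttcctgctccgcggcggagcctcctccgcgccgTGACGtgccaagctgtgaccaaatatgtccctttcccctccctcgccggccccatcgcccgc
Pck1, chr2:173152823-173153072, plus strand: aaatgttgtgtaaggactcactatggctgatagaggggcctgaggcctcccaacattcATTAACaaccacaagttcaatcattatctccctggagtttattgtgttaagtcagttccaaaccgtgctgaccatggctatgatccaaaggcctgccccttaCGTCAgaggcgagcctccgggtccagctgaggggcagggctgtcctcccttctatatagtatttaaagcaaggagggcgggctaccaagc

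The motifs were the E-box CACGTG, the cyclic AMP response core TGACG, the forkhead site TGTTTAC, the glucocorticoid receptor core AGAACA, the HNF1 core GTTAAT and the nuclear receptor core AGGTCA. An inverted pair, CACGGG and CCCGTG with 5 bases between them, was added after the windows had been read. It is the arrangement of a carbohydrate response element, the kind of site that ChREBP binds. The pair stood 170 to 154 bases before the *Pklr* start shown, and 1 of the 32851 windows in the table, 0.00304%, held it. Since these letters were searched after the window had been read, neither its presence there nor this share bears on how common such elements are. The *Pck1* window held TGACG in reverse 90 to 86 bases before the start and GTTAAT in reverse 192 to 187 bases before it. TGACG was found in 17.8% of all windows and GTTAAT in 6.43%. The *Pfkfb3* window held TGACG in 2 places, and its window at another RefSeq start held TGACG and CACGTG, a motif found in 6.02% of all windows. In all, 8 of the 9 members matched the table, with 13 windows between them. *Ppp1r3b* did not match. The *Ppp1r3c* window held CACGTG, the *G6pc* window GTTAAT and AGGTCA, and the *Slc2a2* window AGGTCA, which 14% of all windows held. *Pfkfb1* had a window with GTTAAT and AGGTCA, and the *Pklr* window at another start held AGGTCA. No motif matched 4 of the 13 windows, namely the *Fbp1* window and the other windows of *Pfkfb1*. The forkhead site TGTTTAC, found in 3.17% of all windows, and the glucocorticoid receptor core AGAACA, found in 16.1%, matched no window of a member. The arrays do not tell the starts of a gene apart, and a match is a description of the letters.

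All values are log2 expression as deposited, so a difference of 1 is a doubling, and levels of different genes are not compared because each has its own probes. Array medians lay between 6.76 and 6.92. The background level used here is the 95th percentile of the 1100 olfactory receptor genes, 6.22 in liver, 6.12 in kidney and 6.07 in brain. Tissue markers fitted the labels, since 7 hepatocyte genes averaged 13.07 to 13.22 on the liver arrays 7 kidney tubule genes 11.82 to 11.98 on the kidney arrays and the neuron and glia genes 10.69 to 10.97 on the brain arrays. On the liver arrays of HCD+Sim, pools A and B stood apart. Their list of 12 skeletal muscle genes averaged 7.51 and 7.83 against 6.79 to 6.98 on Control, 6.35 to 6.52 on HCD and 6.18 to 6.44 on the other liver arrays, and their list of 9 exocrine pancreas genes 7.47 and 8.05 against 6.01 to 6.28. Pool C of HCD+Sim averaged 6.44 and 6.22 on the same lists, below both A and B. A plain mix of A and B would lie between them, and how pool C was made was not tested. The list of 10 immediate early genes, the fast response genes such as *Fos* and *Egr1*, was high on the kidney arrays of HCD+Gl-2 and on liver pools A and C of HCD+Gl-2. The late phase clock genes (*Per1*, *Dbp* and 6 others) averaged 8.79 to 9.04 in liver on Control, 9.18 to 9.31 on HCD and 9.63 to 9.76 on HCD+Gl-2. The part of these lists in the results below was not tested, except where a value without the arrays is given.

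Among tissues, the gluconeogenic genes were high in liver and kidney and low in brain, while those of glycolytic control and glycogen, other than *Pfkfb3*, were highest in liver. A gene was called DE in limma, fitted on all arrays and genes, where the adjusted p was at most 0.05 and the log2 fold change exceeded 0.7 in size. On Control, 4 of the 9 members were DE between liver and kidney, where 16.8% of all genes were DE. Between liver and brain 8 of 9 were DE, against 32.7% of all genes, and between kidney and brain 6 of 9, *Ppp1r3c* lower and 5 genes higher in kidney, against 30% of all genes.

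*Fbp1* had a level of 12.19 ± 0.05 (SD, n = 3) in Control liver, 12.19 ± 0.02 in Control kidney and 4.81 ± 0.13 in Control brain, which is under the background level. Liver and kidney differed by 0.00 in log2, with a 95% interval from -0.19 to 0.18. *G6pc* stood at 11.97 ± 0.16 in liver, 11.74 ± 0.05 in kidney and 4.67 ± 0.18 in brain, also under background. *Pck1* was a little lower in liver, at 12.32 ± 0.16, than in kidney, at 12.57 ± 0.04, a difference of -0.25 (SE 0.11) that missed the threshold with an adjusted p of 0.057. Brain *Pck1* was 6.36 ± 0.13, near background. *Slc2a2* was higher in liver (11.71 ± 0.07) than in kidney (11.17 ± 0.08), by 0.55 (SE 0.11, adjusted p = 6.47e-05), which is under the fold threshold, and it was under background in brain.

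The *Pklr* level differed between each pair of tissues, with 11.98 ± 0.04 in liver, 9.68 ± 0.03 in kidney and 6.21 ± 0.15 in brain. Liver was 4.92-fold higher than kidney (SE of the log2 difference 0.10, adjusted p = 9.93e-23), and kidney exceeded brain by 3.47 in log2. *Pfkfb1* was above background in liver alone among the 3 tissues, at 9.09 ± 0.07 against 5.57 ± 0.10 in kidney and 5.01 ± 0.12 in brain. *Pfkfb3* showed no such pattern, with 7.58 ± 0.25, 7.49 ± 0.05 and 7.58 ± 0.06, and its 95% interval for liver against brain ran from -0.43 to 0.42. Of the phosphatase subunits, *Ppp1r3b* stood at 8.46 ± 0.24 in liver and at 6.67 ± 0.15 and 6.62 ± 0.12 in kidney and brain. *Ppp1r3c* had a different order, with 8.63 ± 0.02 in liver, 7.39 ± 0.11 in brain and 5.53 ± 0.18 in kidney, under background. The log2 difference was 1.25 (SE 0.14) for liver against brain and -1.86 (SE 0.14) for kidney against brain. In a bulk sample, fewer cells of a type and less RNA per cell cannot be told apart.

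**Figure D1:**
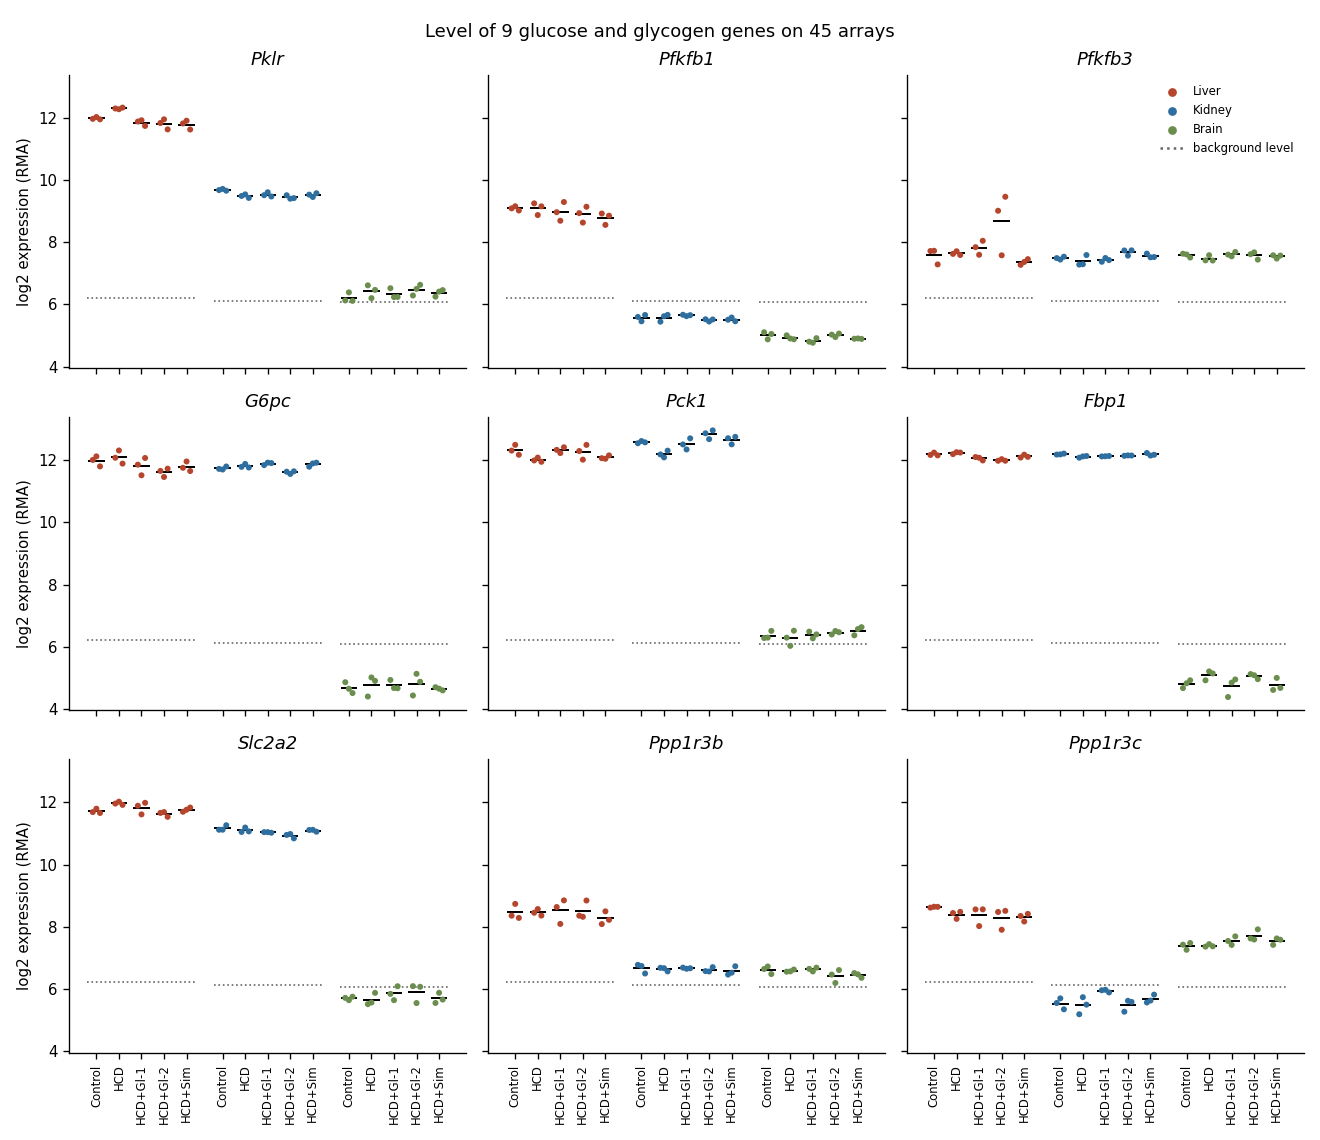
Log2 expression of the 9 genes (y axis) on each of the 45 arrays, by tissue and diet (x axis). Points are arrays, black lines are group means of 3 arrays, and dotted lines give the background level of each tissue. For each gene except *Pfkfb3*, whose liver HCD+Gl-2 arrays reach 9.46, the range between tissues exceeds the range between diets within a tissue.

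In liver, *Pklr* passed the test with each of the 3 treatments against HCD, and was lower with each. Its 3 arrays read 11.97, 12.03 and 11.95 on Control and 12.30, 12.28 and 12.33 on HCD. Each HCD array lay above each Control array, and the difference of 0.32 (SE 0.10) had an adjusted p of 0.098. The skeletal muscle list given above was higher on each Control array than on each HCD array, and its part in the liver comparisons of HCD with Control was not tested.

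The HCD+Gl-1 arrays read 11.88, 11.92 and 11.74, the HCD+Gl-2 arrays 11.83, 11.95 and 11.63, and the HCD+Sim arrays 11.82, 11.91 and 11.62. The 9 treated arrays all lay below the 3 HCD arrays. Pool C, described as the mix of A and B, was the lowest array in each treated group and the highest on HCD. *Pklr* fell by 0.45 with Gl-1 (SE 0.10, adjusted p = 0.00636), which is 1.37-fold. It fell by 0.50 with Gl-2 (SE 0.10, adjusted p = 0.00213), which is 1.41-fold, and by 0.52 with simvastatin (SE 0.10, adjusted p = 0.00222), which is 1.43-fold. These falls passed the adjusted p and not the fold threshold, so *Pklr* was not DE. In each of these comparisons 1 or 2 of the 9 members reached an adjusted p of at most 0.05, which was reached by 2.48% of all genes with Gl-1, 1.7% with Gl-2 and 1.1% with simvastatin.

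The *Pklr* mean was highest on HCD, then on Control, and lowest with simvastatin, and none of the 4 groups other than HCD passed the test against another. Gl-2 and Gl-1 differed by -0.04, with a 95% interval from -0.24 to 0.15, and Gl-2 and simvastatin by 0.02, from -0.17 to 0.22. The 3 treatment comparisons share the HCD arrays, which also enter HCD against Control with the opposite sign. With the 15 liver arrays by themselves the differences were identical and their SE nearly so (0.10). None then passed the adjusted p, which was 0.0777 with Gl-1, 0.0518 with Gl-2 and 0.0727 with simvastatin. On pools A and B only the differences were -0.39, -0.40 and -0.42, with an adjusted p of 0.134, 0.106 and 0.0877. Without the HCD+Gl-1 pool C array the adjusted p was 0.0667 for Gl-1. Without the 2 HCD+Sim arrays that stood apart, the lone remaining array, pool C, gave a *Pklr* difference of -0.68. This alternative was chosen after seeing the data.

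**Figure D2:**
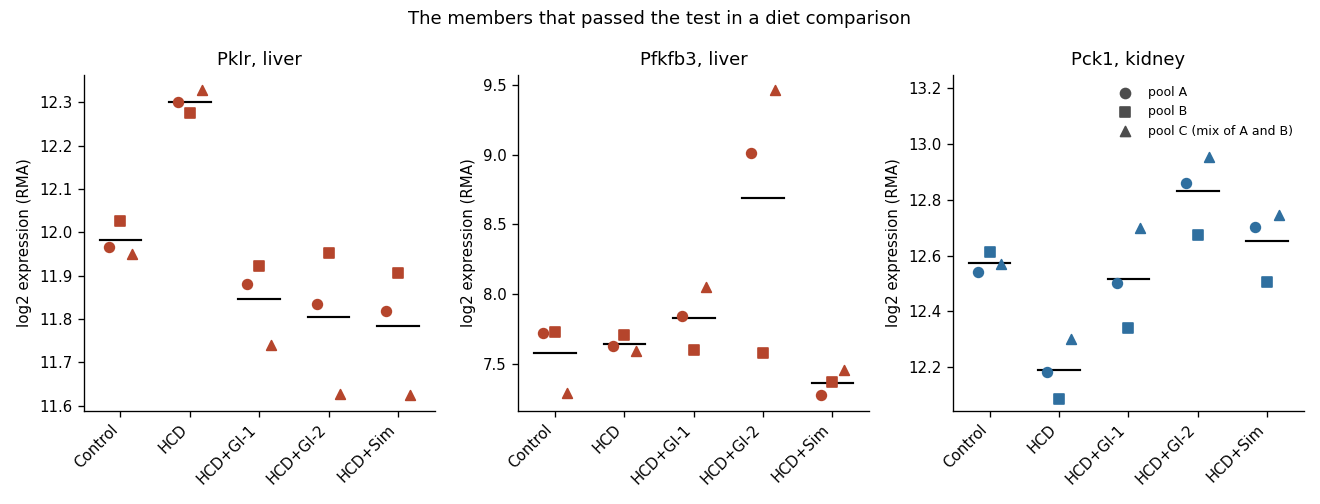
Log2 expression (y axis) of *Pklr* and *Pfkfb3* in liver and of *Pck1* in kidney by diet (x axis), with a marker for each pool, a line at each group mean and a separate range for each panel. *Pklr* is highest on the 3 HCD arrays, *Pfkfb3* is high on 2 of the 3 HCD+Gl-2 arrays, and *Pck1* is lowest on HCD and highest on HCD+Gl-2.

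*Pfkfb3* was the DE member in liver with Gl-2, where 0.303% of all genes were DE. Its liver arrays read 7.63, 7.71 and 7.59 on HCD and 9.01, 7.58 and 9.46 on HCD+Gl-2. Pools A and C of HCD+Gl-2 were high, while pool B was below each HCD array, so the groups overlapped. *Pfkfb3* rose by 1.04 (SE 0.21, adjusted p = 0.00316), which is 2.06-fold. The SD of the HCD+Gl-2 group was 0.98, against 0.06 to 0.25 in the other liver groups. Pool C, described as the mix of A and B, read above both.

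The other liver groups stayed between 7.27 and 8.05. *Pfkfb3* was also DE between Gl-2 and Control (1.11, adjusted p = 0.000821), where 0.584% of all genes were. The same held against simvastatin (1.32, adjusted p = 0.000288, 0.285% of all genes) and against Gl-1 (0.86, adjusted p = 0.0171, 0.172% of all genes). With simvastatin it read 7.27, 7.37 and 7.46, which is -0.28 against HCD with an adjusted p of 0.666. The Gl-2 call was lost with the 15 liver arrays by themselves (adjusted p = 0.233), with pools A and B alone (0.63, adjusted p = 0.228) and without pool C of HCD+Gl-2 (0.65, adjusted p = 0.0892). Without pool B the difference was 1.60. The call against Gl-1 was also lost in these fits (adjusted p = 0.285 and 0.323) and without Gl-1 pool A (0.86, adjusted p = 0.0553), Gl-2 pool A (0.69, adjusted p = 0.0779) or Gl-2 pool C (0.47, adjusted p = 0.179), and without Gl-2 pool B the difference was 1.41. Against Control and simvastatin the adjusted p was 0.129 and 0.167 with the liver arrays by themselves, while the call held with each array left out, with values from 0.72 to 1.66 and from 0.93 to 1.87. On pools A and B alone the call against Control was lost (0.57, adjusted p = 0.213).

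The immediate early genes were high on the same liver arrays. Their list averaged 8.77, 7.33 and 9.25 on HCD+Gl-2 pools A, B and C, against 7.15 to 7.28 on HCD, and 8 of its 10 genes were DE with Gl-2. In kidney the list averaged 9.09, 8.71 and 9.19 on HCD+Gl-2 against 6.96 to 6.97 on HCD, and 10 of 10 genes were DE. Kidney *Pfkfb3* read 7.74, 7.57 and 7.74 on these arrays against 7.28, 7.29 and 7.59 on HCD, a difference of 0.29 (SE 0.21, adjusted p = 0.795). The response of *Pfkfb3* to Gl-2 in liver exceeded that in kidney by 0.75 (SE 0.30, adjusted p = 0.387). The part of the immediate early genes in the *Pfkfb3* result was not tested.

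**Figure D3:**
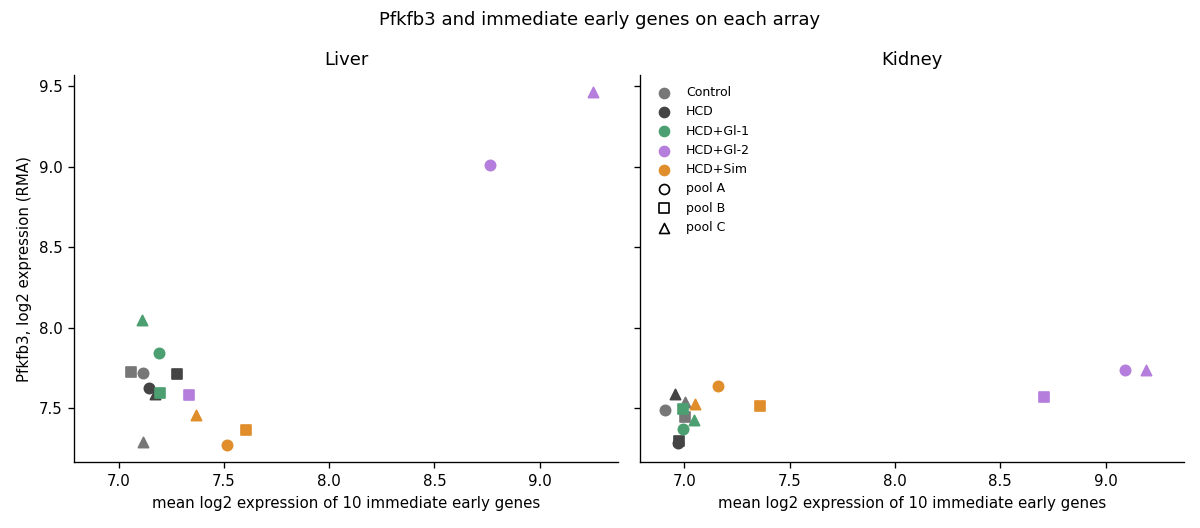
*Pfkfb3* log2 expression (y axis) against the mean log2 expression of 10 immediate early genes (x axis) on each liver and kidney array, coloured by diet and shaped by pool. The arrays with a high immediate early mean are liver HCD+Gl-2 pools A and C, with *Pfkfb3* at 9.01 and 9.46, and the 3 of kidney HCD+Gl-2 arrays, with *Pfkfb3* between 7.57 and 7.74.

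*Pck1* had its lowest group mean on HCD in both liver and kidney. The kidney arrays read 12.54, 12.61 and 12.57 on Control and 12.18, 12.09 and 12.30 on HCD, with no overlap. The difference was -0.38 (SE 0.11) with an adjusted p of 0.282. By limma no member passed the test in this comparison, where 0.131% of all genes reached an adjusted p of at most 0.05. An unadjusted p under 0.05 was found for 2 of the 9 members and for 4.47% of all genes.

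Kidney *Pck1* rose with Gl-2. The HCD+Gl-2 arrays read 12.86, 12.67 and 12.95, all above the HCD arrays. The rise was 0.64 (SE 0.11, adjusted p = 0.000379), which is 1.56-fold and under the fold threshold, in a comparison where 0.996% of all genes reached an adjusted p of at most 0.05. It passed the adjusted p under each alternative and with each array left out, with values from 0.58 to 0.72 and an adjusted p of at most 0.0127. Without pool B of HCD+Gl-2 it was 0.72 and DE. Pool B was the lowest of the 3 kidney *Pck1* arrays in 4 of the 5 diet groups, all but Control. Of all genes, 3.39% had pool B lowest in at least 4 of the 5 kidney groups. Pool C, described as the mix of A and B, read above both in the same groups. What sets the pools apart was not tested.

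Kidney *Pck1* read 12.70, 12.51 and 12.75 with simvastatin and 12.50, 12.34 and 12.70 with Gl-1, in both groups above each HCD array. The differences from HCD were 0.46 (SE 0.11, adjusted p = 0.0703) and 0.32 (SE 0.11, adjusted p = 0.562), and 0.222% and 0.267% of all genes reached an adjusted p of at most 0.05 in these comparisons. Gl-2 exceeded Gl-1 by 0.32, with a 95% interval from 0.09 to 0.54 and an adjusted p of 0.374. The order was HCD+Gl-2, HCD+Sim, Control, HCD+Gl-1 and HCD, and no neighbours in this order passed the test against each other. On the kidney HCD+Gl-2 arrays the late phase clock list averaged 9.44 to 9.55 against 9.20 to 9.28 on HCD, and its part in the *Pck1* result, like that of the immediate early list given above, was not tested.

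Liver *Pck1* read 12.31, 12.49 and 12.17 on Control and 11.99, 12.08 and 11.94 on HCD, again with no overlap. The difference was -0.32 (SE 0.11, adjusted p = 0.193). The HCD+Gl-1 arrays, at 12.33, 12.23 and 12.41, lay above the HCD arrays by 0.32 (SE 0.11, adjusted p = 0.115). The HCD+Gl-2 arrays spread from 12.01 to 12.49, by 0.26 above HCD (adjusted p = 0.293), and the HCD+Sim arrays from 12.04 to 12.15, by 0.08 (adjusted p = 0.859). The liver and kidney responses of *Pck1* to Gl-2 differed by -0.38 (SE 0.16, adjusted p = 0.421), so no difference between the organs passed the test.

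The other gluconeogenic genes and GLUT2 did not pass the test in a diet comparison. Liver *G6pc* read 12.07, 12.31 and 11.89 on HCD and 11.65, 11.46 and 11.72 on HCD+Gl-2, with each Gl-2 array below each HCD array. The difference was -0.48 (SE 0.14, adjusted p = 0.0727). With Gl-1 and simvastatin *G6pc* differed from HCD by -0.28 and -0.31, and both groups overlapped with HCD. On Control it read 12.00, 12.12 and 11.80, and HCD differed from it by 0.12, with a 95% interval from -0.17 to 0.40.

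Liver *Slc2a2* read 11.69, 11.79 and 11.66 on Control, 11.96, 12.02 and 11.92 on HCD and 11.66, 11.69 and 11.53 on HCD+Gl-2. HCD stood above both groups without overlap. HCD differed from Control by 0.25 (SE 0.11, adjusted p = 0.382) and Gl-2 from HCD by -0.34 (SE 0.11, adjusted p = 0.119). Liver *Fbp1* had a narrow range, from 11.98 to 12.25 over the 15 arrays. Each treated array lay below each HCD array, by 0.23 on average with Gl-2 (log2 fold change -0.23, SE 0.09, adjusted p = 0.246). In kidney the *Fbp1* arrays lay between 12.08 and 12.23 on the 5 diets, and the *G6pc* arrays between 11.55 and 11.92. With Gl-2 each kidney *G6pc* array lay below each HCD array (-0.20, SE 0.14, adjusted p = 0.785). The same held for kidney *Slc2a2* (-0.18, SE 0.11, adjusted p = 0.732). Kidney *Fbp1* lay above HCD with Gl-2 by 0.04, also without overlap, and *Pck1* rose as given above. In this comparison the arrays of 20.4% of all genes did not overlap.

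The liver enzyme gene *Pfkfb1* and the phosphatase subunit genes did not pass the test in a diet comparison either. *Pfkfb1* read 9.25, 8.87 and 9.15 on HCD and 8.92, 8.56 and 8.86 on HCD+Sim, a difference of -0.31 (SE 0.11, adjusted p = 0.19). *Ppp1r3c* read 8.61, 8.64 and 8.64 on Control and 8.44, 8.25 and 8.48 on HCD, a difference of -0.24 (SE 0.14, adjusted p = 0.585). For both genes pool B was the lowest of the 3 liver arrays in 4 of the 5 diet groups, all but Control. Of all genes, 10.7% had pool B lowest in at least 4 of the 5 liver groups.

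*Ppp1r3b* ranged from 8.09 to 8.85 in liver, with group means between 8.27 on HCD+Sim and 8.52 on HCD+Gl-1. Its differences from HCD were 0.06 with Gl-1, 0.05 with Gl-2 and -0.19 with simvastatin, each with a 95% interval that held 0. In kidney *Ppp1r3c* was under background in all groups, so its Gl-1 value of 0.47 against HCD (adjusted p = 0.318) compares dim signals. Among the 45 pairs of a member and a liver group, pool C lay between pools A and B in 7, or 15.6%, against 29.0% over all genes. In kidney the count was 13 (28.9%, against 30.3% of all genes) and in brain 14 (31.1%, against 25.7%).

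Counted over the members, the arrays of the groups did not overlap for 4 of 9 in liver on HCD against Control, against 14.9% of all genes. The count was 3 of 9 with Gl-1 (14.7% of all genes), 4 of 9 with Gl-2 (15.2%) and 4 of 9 with simvastatin (13.4%). In kidney it was 3 of 9 on HCD against Control (13.2% of all genes), 3 of 9 with Gl-1 (13.8%), 4 of 9 with Gl-2 (20.4%) and 2 of 9 with simvastatin (16.7%). Since the members were chosen with earlier results of these data known, these counts are descriptions.

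**Figure D4:**
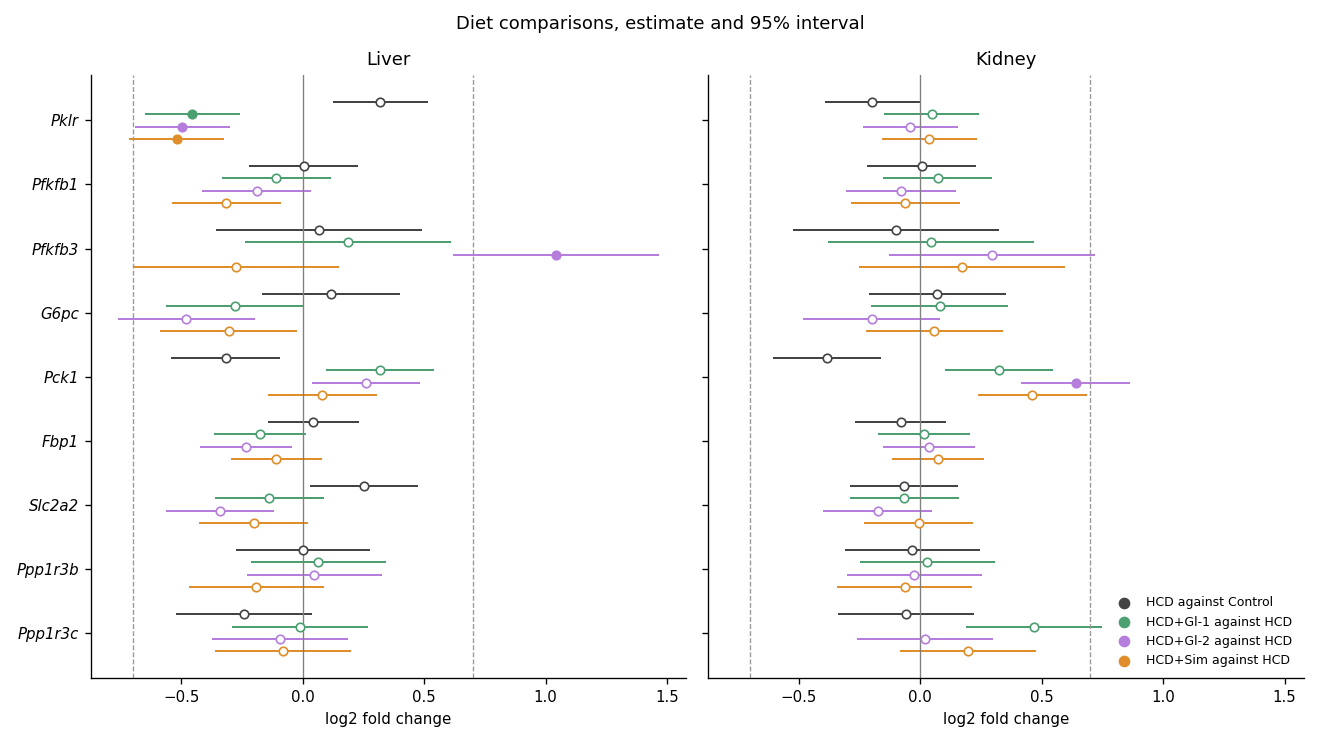
Log2 fold change (x axis) of the 9 genes (y axis) in 4 diet comparisons in liver and kidney. Points are estimates, bars 95% intervals before adjustment for many genes, filled points passed the adjusted p of 0.05, and dashed lines mark the fold threshold of 0.7. Filled points are *Pklr* with each treatment and *Pfkfb3* with Gl-2 in liver, and *Pck1* with Gl-2 in kidney.

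Over the 9 members, the median log2 fold change in liver was 0.04 on HCD against Control, where the median of all genes was -0.01. With Gl-1, Gl-2 and simvastatin the median of the members was -0.11, -0.19 and -0.20, against -0.01, 0.01 and 0.03 over all genes. With simvastatin 1 of the 9 members was higher than on HCD, namely *Pck1*, where 62.2% of all genes were higher. These comparisons share the HCD arrays.

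In brain no member passed the test in the 4 diet comparisons by limma, and each comparison had 1 or 2 of the 9 with an unadjusted p under 0.05. Of all genes, 6.44%, 5.55%, 6.65% and 5.53% had such a p on HCD against Control, with Gl-1, with Gl-2 and with simvastatin. An adjusted p of at most 0.05 was reached by 0.0543% of all genes on HCD against Control, 0.0181% with Gl-1, 0.0362% with Gl-2 and 0.0181% with simvastatin. The lowest adjusted p was 0.231, for *Fbp1* with Gl-1, a gene under background there. Brain *Ppp1r3c*, which was above background, read 7.36, 7.44 and 7.37 on HCD and 7.62, 7.59 and 7.92 on HCD+Gl-2, a difference of 0.32 (SE 0.14, adjusted p = 0.668). The HCD+Gl-2 arrays all lay above the HCD arrays, and 14.6% of all genes had arrays that did not overlap in this comparison.

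Whether a member responded differently in liver than in kidney or brain was tested as a difference of differences, 72 tests in all. None reached an adjusted p of at most 0.05 in limma. Of all genes, 0.263%, 0.389%, 0.625% and 0.299% reached it for liver against kidney on HCD, Gl-1, Gl-2 and simvastatin, and 0.326%, 0.362%, 0.598% and 0.0996% for liver against brain. At an unadjusted p under 0.05 there were 18 of the 72. By comparison these were 2, 2, 4 and 2 of 9 for liver against kidney, where 7.13%, 10.4%, 8.89% and 9.59% of all genes had such a p, and 0, 2, 5 and 1 of 9 for liver against brain, where 8.77%, 11.5%, 10.5% and 8.45% had it. The lowest adjusted p was 0.0513, for *Pklr* with Gl-2 in liver against brain (-0.54, SE 0.14). For *Pklr* in liver against kidney the difference was 0.52 (SE 0.14, adjusted p = 0.0982) on HCD against Control and -0.55 (SE 0.14, adjusted p = 0.0622) with simvastatin. Without the 2 HCD+Sim liver arrays that stood apart, the latter was -0.71. This alternative was chosen after seeing the data and leaves pool C as the lone HCD+Sim liver array. Kidney *Pklr* itself read 9.68, 9.71 and 9.66 on Control and 9.49, 9.54 and 9.43 on HCD, lower by 0.20 on average (log2 fold change -0.20, adjusted p = 1), and the treated groups lay between 9.40 and 9.61.

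The other genes of these pathways were read from 5 lists with 108 measured genes, 25 other glycolysis enzymes, 13 other gluconeogenesis genes, 27 other glycogen genes, 13 other hexose transporters and fructose enzymes, and 30 regulators. On HCD against Control in liver, 5 of the 108 rose and 2 fell by the adjusted p, where 1.34% of all genes reached it and 0.245% were DE. The DE gene was *Slc16a1*, a lactate and pyruvate transporter, which read 8.70, 8.64 and 8.77 on Control and 7.99, 7.73 and 8.16 on HCD and fell by 0.74 (SE 0.11, adjusted p = 8.15e-05). The others are named because they passed the adjusted p and not by the rule for DE genes. *Mlxipl*, the ChREBP gene, read 11.21, 11.05 and 11.40 on Control and 11.57, 11.54 and 11.64 on HCD, and rose by 0.36 (SE 0.08, adjusted p = 0.00781). *Dak*, which codes for a triose kinase of fructose breakdown, rose by 0.44 (adjusted p = 0.0222). The glycogen synthesis genes *Gbe1*, the branching enzyme, and *Ugp2*, which makes UDP glucose, rose by 0.37 and 0.35. The glucose transporter gene *Slc2a4* rose by 0.53 from 6.87, 6.82 and 6.65 on Control, and *Ldha*, lactate dehydrogenase, fell by 0.30. The skeletal muscle list was lower on HCD as well (6.35 to 6.52 against 6.79 to 6.98), and its part in these results was not tested.

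Some genes of the 5 lists were lower in treated liver than on HCD. Of those that rose on HCD, *Dak* and *Slc2a4* fell by the adjusted p with Gl-1. With Gl-2 *Slc2a4*, *Gbe1* and *Ugp2* did so, and with simvastatin none did. These genes were picked for a rise on the same HCD arrays, which enter HCD against Control with the opposite sign. Such falls can therefore arise from the HCD arrays alone and are descriptions. With Gl-1, 5 of the 108 fell and 1 rose by the adjusted p, which 2.48% of all genes reached, and none was DE, where 0.163% of all genes were. *Khk*, the ketohexokinase that starts fructose breakdown, read 11.89, 11.94 and 11.82 on HCD and 11.44, 11.59 and 11.22 on HCD+Gl-1, and fell by 0.47 (SE 0.10, adjusted p = 0.00482). The glycolysis enzyme gene *Gpi1* fell by 0.32 (adjusted p = 0.014), *Dak* by 0.42, *Slc2a4* by 0.53 and the mitochondrial carrier gene *Slc25a10* by 0.26. *Cebpb*, a transcription factor of the liver's fasting and acute phase genes, rose by 0.58 (SE 0.10, adjusted p = 0.000677).

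With Gl-2, 6 of the 108 fell and 4 rose by the adjusted p, which 1.7% of all genes reached. *Khk* fell by 0.44, *Gpi1* by 0.36 and *Slc2a4* by 0.50. The glycogen genes *Gbe1*, *Ugp2* and *Pygl*, the liver glycogen phosphorylase, fell by 0.42, 0.38 and 0.34, so both synthesis and breakdown genes were among them. *Sik1*, a kinase that restrains gluconeogenic transcription and is itself induced by cyclic AMP, read 8.34, 8.50 and 8.18 on HCD and 9.28, 8.83 and 9.49 on HCD+Gl-2, and was DE with a rise of 0.86 (SE 0.12, adjusted p = 1.83e-05). *Trib1*, a pseudokinase gene, was DE with a rise of 0.70 although its arrays overlapped. *Cebpb* rose by 0.56 and *Txnip*, a glucose-responsive gene, by 0.62 (adjusted p = 0.0196).

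With simvastatin 1 of the 108 fell and 1 rose by the adjusted p, which 1.1% of all genes reached, and neither was DE, where 0.258% of all genes were. *Gpi1* fell by 0.33 (SE 0.07, adjusted p = 0.017). The gene that rose was *Pgam2*, a glycolysis enzyme of skeletal muscle, by 0.49 (adjusted p = 0.0121), and 7 of the 12 skeletal muscle marker genes were DE on the same comparison. *Khk* had a value of -0.33 with simvastatin that did not pass the test. *Gpi1*, like *Pklr*, was thus lower with each of the 3 treatments, which share the HCD arrays. *Mlxipl* did not pass the test with any treatment.

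**Figure D5:**
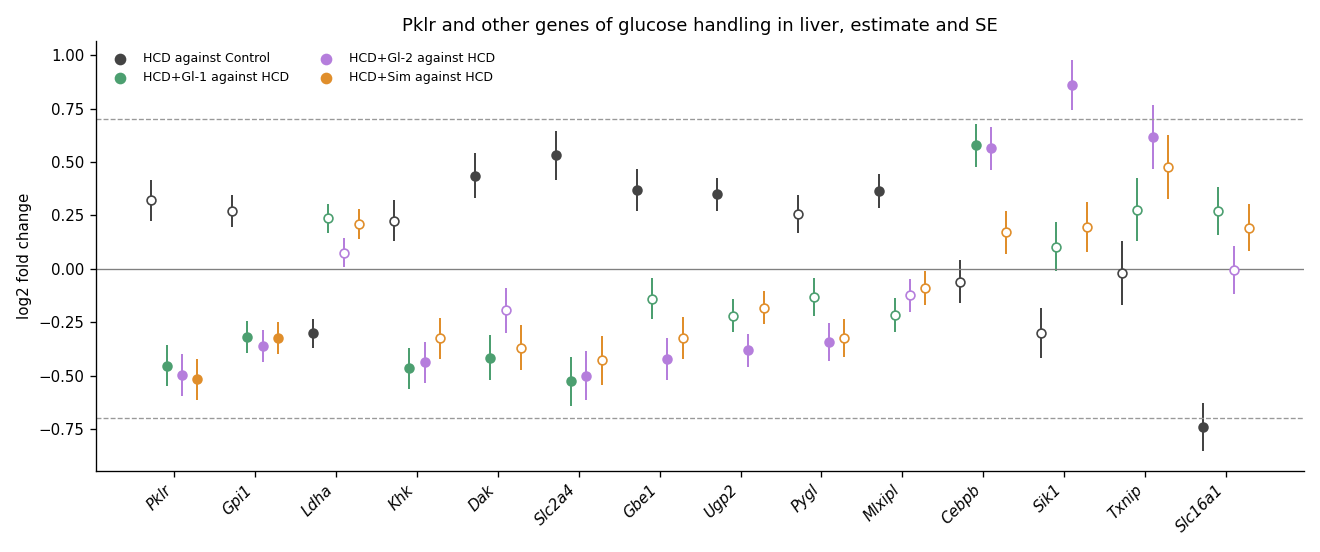
Log2 fold change with SE (y axis) of *Pklr* and 13 other genes of glucose handling (x axis) in 4 diet comparisons in liver. Filled points passed the adjusted p of 0.05, and dashed lines mark the fold threshold. *Gpi1*, *Khk*, *Slc2a4* and *Pklr* lie above 0 on HCD against Control and below 0 with each treatment, while *Sik1* and *Slc16a1* have points past the fold threshold. Of the former, *Slc2a4* alone passed the adjusted p on HCD against Control. All 4 comparisons share the HCD arrays, which enter HCD against Control with the opposite sign, so opposite directions can arise from these arrays alone.

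The medians of the lists stayed near that of all genes. On HCD against Control in liver they ran from -0.10 for the glycolysis enzymes to 0.03 for the hexose transporters and fructose enzymes, and with Gl-2 from -0.06 for the gluconeogenesis genes to 0.10 for the regulators. In kidney 2 of the 108 genes passed the adjusted p, both with Gl-2, where 0.996% of all genes did. *Sik1* rose by 0.60 (SE 0.12, adjusted p = 0.00188) and *Cebpb* by 0.46 (SE 0.10, adjusted p = 0.00763) on the arrays where *Pck1* rose. In the other kidney comparisons and in the brain comparisons none of the 108 passed it.

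The genes most like each member were found by Pearson correlation over the 15 liver arrays, which share pools and diets, so the coefficients are descriptions. *Pklr* was most like *Acaca* (0.953), the acetyl-CoA carboxylase of fatty acid synthesis, *Pgd* (0.930), of the pentose phosphate route, and *Gpi1* (0.923). *Pfkfb3* was most like *Egr2* (0.939), an immediate early gene, *Hspa1b* (0.937), a heat shock gene, and *Brd2* (0.925). *Fbp1* was most like *Gapdh* (0.921), a glycolysis enzyme gene that also works in gluconeogenesis, and *Pck1* was most like *BC025446* (0.926). The first gene was *Cdo1* for *G6pc* (0.889), *Cyp2j6* for *Slc2a2* (0.914), *Arid2* for *Pfkfb1* (0.878), *Prrc2c* for *Ppp1r3b* (0.817) and *Dyrk1a* for *Ppp1r3c* (0.924).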

How the data were processed

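RNA of 45 arrays was measured. Before deposit the authors applied RMA background correction, quantile normalization (oligo) and ComBat, whose batches are not given in the sources used here, and retained 1 probe set per gene, that of highest interquartile range. The deposited values are log2 expression. The table has no coordinates, and 30 gene names had turned into dates or numbers and are not named. Groups follow the labels. A limma 3.58.1 model (R 4.3.3) with a mean for each of 15 groups used all arrays, with p-values adjusted by Benjamini-Hochberg across the 22080 genes, separately for each contrast (prior degrees of freedom 7.34, residual 30), and the procedure was tested on simulated data. With 3 arrays per group an exact permutation test cannot give a p under 0.1. The p-values rest on the pooled spread, which is partly technical since by the methods a group has 2 independent pools. Deviations of same-letter arrays correlated over 0.1 for each letter in 3 of the 30 pairs of diet groups of a tissue, none of them a comparison with HCD. The number of arrays limits the precision.

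The 9 members, the lists and the motifs were chosen with earlier results of these data known. List genes are named by rule if DE with arrays that do not overlap, up to 5 per list and comparison. Promoters come from RefSeq (GRCm38.p6), and figures were drawn with matplotlib 3.10.9. Alternatives were to fit the compared tissue or groups only, to use pools A and B only, to block on the pool letter, to drop dim genes, to repeat quantile normalization by tissue, to moderate with trend and robust estimates, to drop the fold threshold, and to leave out each array.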

Additional observations from a re-analysis of the deposited data

How the results depend on the processing

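The number of DE members over the 4 liver diet comparisons was 1 as reported, the *Pfkfb3* call with Gl-2. It was 0 in the fit on the liver arrays only, 0 in the fit on the compared groups only, 0 on pools A and B only, and 4 with no fold threshold, where *Pklr* was added with each treatment. With single arrays left out it was 0 to 1, and 0 without HCD+Gl-2 pool C. In kidney the number was 0 as reported and 1 with no fold threshold, which is *Pck1* with Gl-2. With single arrays left out it was 0 to 1, and 1 without HCD+Gl-2 pool B. In brain it was 0 under each alternative. The 18 calls between tissues on Control were 18 to 20 over the alternatives and 18 with single arrays left out. The differences of response gave 0 calls as reported. They gave 0 to 2 with single arrays left out, with 2 for *Pfkfb3* without liver HCD+Gl-2 pool B and 1 for *Slc2a2* without brain HCD pool C or brain HCD+Gl-2 pool B. Another alternative, chosen after seeing the data, left out the 2 liver HCD+Sim arrays with high muscle and pancreas markers. With the lone remaining array, the *Pklr* responses to simvastatin in liver and kidney differed by -0.71. With the pool letter as a replicate block the counts in liver, kidney, brain, between tissues and of differences of response were 1, 0, 0, 18 and 0. In 3 of the 30 pairs of diet groups of a tissue the arrays of each letter deviated together (correlation over 0.1), namely liver HCD+Gl-2 with HCD+Gl-1 and with HCD+Sim, and brain Control with HCD+Gl-2. In the other pairs at least 1 letter fell short. The block changed no call of *Pfkfb3* between Gl-2 and Gl-1 (adjusted p = 0.0165) or between Gl-2 and simvastatin (adjusted p = 0.000308).

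The falls of *Pklr* had an adjusted p of 0.134, 0.106 and 0.0877 with Gl-1, Gl-2 and simvastatin on pools A and B only, and of 0.145, 0.173 and 0.26 in the fit on the compared groups only. For *Pfkfb3* with Gl-2 that fit gave 0.48. The adjusted p ran from 0.0192 to 0.122 over the alternatives for kidney *Pck1* with simvastatin and from 0.0477 to 0.294 with single arrays left out for liver *G6pc* with Gl-2. Single members and comparisons were counted where the unadjusted p was under 0.05 as reported. A result that was not DE counted as kept while it stayed so, as for *Pklr* where its adjusted p rose above 0.05. Several alternatives also leave the estimate unchanged by construction. On this count 1379 alternative values kept their direction and their side of the DE threshold, 15 lost the call and 12 gained it, and none changed direction. Where no construction of the alternative, such as fewer arrays, shows it, the cause was not tested. Pools of 4 mice and 3 arrays per group limit what could be detected.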
